A study of Mus musculus with 547 samples.

Results

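The cells described here were hepatoblasts of mouse fetal liver at embryonic days E13.5 and E12.5. They were chosen by label: an embryo cell was included when its title named one of those days and its putative cell type was hepatoblast/hepatocyte. That gave 93 of the 529 single cells of the series, of which 447 came directly from embryos. The cell type is the authors' own assignment to each cell, so the low levels of duct genes given below are not independent of it.

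The study followed liver cells through the separation of the hepatocyte and bile duct lineages. Cells were sorted through a P1 gate (DLK+) or a P2 gate (EpCAM+), picked by hand, given the same volume of ERCC spike-in RNA, and amplified by Smart-seq2, a full-length cDNA method. All embryos in the groups used here were untreated. Strain, sex and litter are not given in the labels. The 93 cells fell into 9 numbered sets, and a set is the unit of replication below. Among E13.5 cells the EpCAM+ gate had 9 cells in set 2 and 7 in set 3, and the DLK+ gate had 13, 18 and 8 cells in sets 1, 2 and 3. Among E12.5 cells the EpCAM+ gate had 14 cells in set 1 and 3 in set 2, and the DLK+ gate had 15 and 6 cells in sets 1 and 2. What a set stands for (a litter or a sort, for example) is not in the labels, so p-values measure the spread between sets, which may be technical. For reference, 68 E11.5 hepatoblasts in 5 sets, 53 E14.5 hepatoblasts in 6 sets and 13 cholangiocytes of E12.5 and E13.5 were used. Those hepatoblasts came from the same pair of gates, and the cholangiocytes came from the EpCAM+ gate.

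A hepatoblast is the fetal liver progenitor that gives rise to hepatocytes, which make most plasma proteins, and to cholangiocytes, which line the bile ducts. Hepatoblasts divide rapidly, secrete alpha-fetoprotein and albumin, and carry the surface protein DLK1. Near the portal vein, Notch and TGF-beta signals favour the duct fate, in which SOX9, osteopontin and keratin 19 are made and hepatocyte factors such as HNF4A decline.

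Reads assigned to genes ranged from 764286 to 1367423 per cell, with a median of 1051828, and spike-ins took 0.783% to 2.88% of reads. A gene was called detected in a cell at 10 or more reads after every cell was thinned to 763480 gene reads. Levels of single cells are given in TPM, a share of all transcripts corrected for gene length. Levels of sets are given in CPM of the summed reads of a set, a share of reads with no correction for length. Spike-in counts were not included in either. The highest correlation among the 4278 pairs of these cells was 0.907.

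Afp, Alb, Dlk1 and Hnf4a, the markers taken for hepatoblasts, were detected in all 93 cells. They were also detected in all 13 cholangiocytes of the same days, so detection alone did not tell the cell types apart. Afp, the fetal serum carrier alpha-fetoprotein, had 32800 TPM in the lowest cell, 56700 TPM in the median cell and 103000 TPM in the highest. Alb, the major adult serum carrier, had 4690, 19000 and 65100 TPM in the lowest, median and highest cell. Dlk1, whose product was also used for sorting, ran from 305 to 836 TPM with a median of 521 TPM. Hnf4a, a nuclear receptor that drives the hepatocyte programme, ran from 7.94 to 129 TPM with a median of 42.0 TPM. Alb had a wider range from cell to cell than Afp or Dlk1.

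Alb and Afp are neighbours on chromosome 5 of the GRCm38 build, at 90460897 to 90476602 and 90490737 to 90508907 on the plus strand. Dlk1 lies on chromosome 12 at 109452823 to 109463336 and Hnf4a on chromosome 2 at 163506808 to 163572910. The 250 bases before the annotated start of Alb and Afp are shown because the levels of these neighbours moved together from cell to cell (below). Alb correlated more strongly with Ttr, Serpina1b and Apoh than with Afp, and a part of the shared position was not tested. Both end at the base before the RefSeq start (GRCm38.p6), and no motif was searched in them.
Alb promoter, chr5:90460620-90460869, plus strand: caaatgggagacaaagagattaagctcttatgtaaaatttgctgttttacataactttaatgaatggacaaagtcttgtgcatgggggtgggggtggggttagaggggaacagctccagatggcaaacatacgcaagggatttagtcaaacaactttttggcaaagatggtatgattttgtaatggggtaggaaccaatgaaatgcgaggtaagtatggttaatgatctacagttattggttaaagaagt
Afp promoter, chr5:90490464-90490713, plus strand: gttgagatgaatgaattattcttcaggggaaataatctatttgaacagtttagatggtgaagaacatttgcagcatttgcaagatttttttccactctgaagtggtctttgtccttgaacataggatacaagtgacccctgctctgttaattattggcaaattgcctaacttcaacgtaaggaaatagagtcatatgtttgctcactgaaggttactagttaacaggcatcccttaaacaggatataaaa

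**Figure D1:**
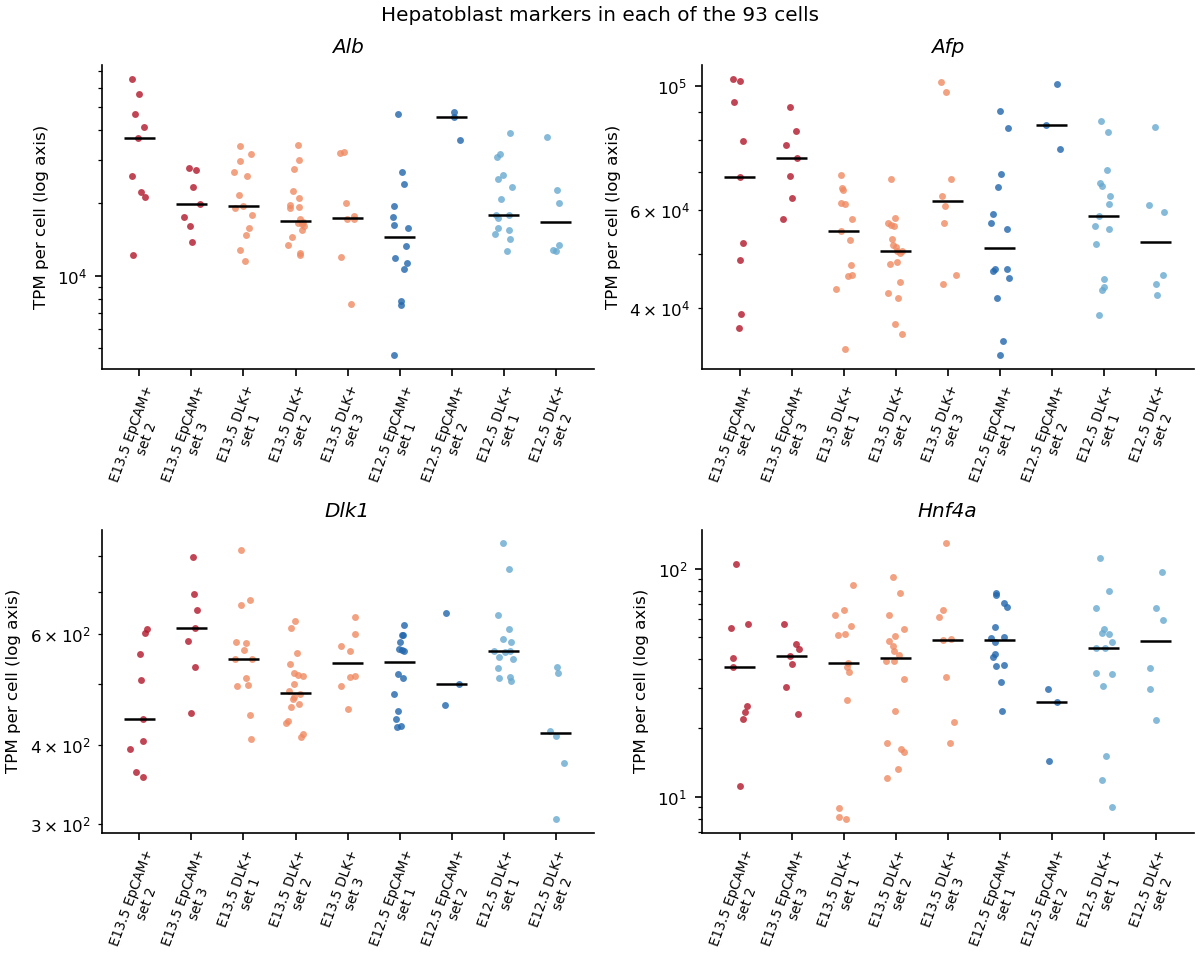
Level in TPM (log axis) of Alb, Afp, Dlk1 and Hnf4a in each of the 93 cells, 1 point per cell, by day, gate and set; lines mark set medians. Every cell lies above 0 for all 4 genes, and the highest set medians of Alb are in E12.5 EpCAM+ set 2 (45400 TPM) and E13.5 EpCAM+ set 2 (37200 TPM).

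The set medians of Alb were 37200 and 19900 TPM in the E13.5 EpCAM+ sets 2 and 3 and 19400, 16900 and 17400 TPM in the E13.5 DLK+ sets. At E12.5 they were 14500 and 45400 TPM in EpCAM+ sets 1 and 2 and 17900 and 16700 TPM in the DLK+ sets. A pair of EpCAM+ sets, 1 at each day, stood above the other 7 sets, which lay between 14500 and 19900 TPM. Median Dlk1 stayed between 418 and 613 TPM and median Hnf4a between 26 and 48.9 TPM in every set. In bulk libraries of DLK+ cells, Hnf4a had 201 and 272 TPM at E13.5 and 231 and 198 TPM at E12.5. Bulk Alb was 30400 and 54400 TPM at E13.5 and 28700 and 33600 TPM at E12.5, and bulk Afp was 33800 and 53900 TPM at E13.5 and 46800 and 52200 TPM at E12.5.

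With predicted genes and clones left out, the most abundant messages of the cells mostly encoded secreted liver proteins. After Yam1, a gene at 80700 TPM on average whose reads may be shared with mitochondrial copies, Afp held 5.97% and Alb 2.22% of all transcripts. Among the entries left out, RP23-8J15.3, RP23-8J15.4, RP23-8J15.1 and RP23-8J15.2 averaged 21960, 18980, 15130 and 11130 TPM. Apoa2 and Apoa1, structural proteins of high-density lipoprotein, averaged 14870 and 10410 TPM. Serpina6, the cortisol-binding globulin, averaged 10920 TPM, and Rbp4, the retinol carrier, averaged 10320 TPM. Ambp, Apoe and Ttr, the thyroxine carrier transthyretin, averaged 6023, 5938 and 5398 TPM. The metal-binding protein Mt1 averaged 14350 TPM and ran from 316 to 35880 TPM. Mt2, its partner gene, averaged 4059 TPM and ran from 33.9 to 11670 TPM.

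Plasma protein programmes were close to universal among the cells. Of 15 carrier and apolipoprotein genes, 14 were detected in all 93 cells, the exception being Apoc3 in 26 cells. Ahsg, the plasma protein fetuin-A, nevertheless ran from 146 to 8270 TPM, and Apoh, a phospholipid-binding plasma protein, ran from 67.7 to 3250 TPM around 657 TPM. Of 19 complement and coagulation genes, 13 were detected in all cells. Fgb, the fibrinogen beta chain, had a median of 2570 TPM and a range of 1190 to 8080 TPM. The clotting factors F9 and F11 were detected in 31 and 69 cells.

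The growth programme of the fetus was as widespread. Of 14 fetal and growth genes, 10 were detected in all 93 cells, among them Gpc3, a cell surface glypican, at a median of 1260 TPM. The imprinted pair Igf2, a growth factor, and H19, a non-coding RNA, had medians of 1020 and 855 TPM. Bulk DLK+ libraries had H19 above Igf2: H19 had 16100 and 19400 TPM at E13.5 and 14100 and 13500 TPM at E12.5. Bulk Igf2 was 3990 and 5490 TPM at E13.5 and 3950 and 3710 TPM at E12.5. The cause of this difference was not tested. Lin28a and Lin28b, which block maturation of the let-7 microRNAs, were detected in 53 and 65 cells. The sterol synthesis enzymes Fdps and Hmgcs1 had medians of 990 and 527 TPM, and 9 of 12 genes of that pathway were detected in every cell.

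Functions of the postnatal liver were partial or below detection. Of 12 amino acid and urea cycle genes, 4 were detected in all cells: Otc, Ass1, Asl and Fah. Cps1, which opens the urea cycle, was detected in 33 cells, Arg1, which closes it, in 57, Tat in 1 and Tdo2 in none. Of 10 gluconeogenesis and glycogen genes 3 were detected in all cells. G6pc, which releases free glucose, was detected in no cell, Fbp1 in 1 and Pck1 in 8.

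For bile acids, the canalicular pump Abcc2 was the single gene of 11 detected in all cells, and a cell had a median of 3 of these genes. Cyp7a1, the rate-limiting enzyme of bile acid synthesis, was detected in 9 cells, the uptake carrier Slc10a1 in 9, the bile salt pump Abcb11 in 31 and the conjugating enzyme Baat in 1. Of 12 drug metabolism genes, 6 were detected in no cell, among them Cyp3a11, Cyp2e1 and Cyp1a2. In contrast Por, the electron donor of the cytochromes, was detected in 92 cells, Cyp2d10 in 82 and Gsta3 in 70. Hamp, the iron hormone hepcidin, was not detected, whereas the ferritin chains Fth1 and Ftl1 were detected in all 93 cells.

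Among 20 liver transcription factors, Hnf4a, Foxa3 and Prox1 were detected in all 93 cells. Foxa3, a pioneer factor, had a median of 137 TPM, and Prox1, needed for hepatoblast migration, had 27.6 TPM. Hhex was detected in 92 cells, Onecut2 in 82, Foxa2 and Tbx3 in 80 each, Cebpa in 62, Onecut1 in 29, Gata4 in 22 and Nr1i3 in 6. Cebpb was detected in none. Most of these messages were low, so a count of cells here depends on depth: a gene was called from 10 reads, and a miss does not show absence.

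Messages of the other cell types of fetal liver were scarce. Of 8 red cell genes 6 were detected in no cell, and Hbb-bs, an adult beta globin, was detected in 1. Of 8 macrophage genes 5 were detected in none, with Cd68 in 4 cells. None of 8 other blood cell genes was detected in a cell. Of the mesenchymal, endothelial and mesothelial lists, 4 of 8, 5 of 6 and 3 of 4 genes were detected in no cell, while Pdgfrb was detected in 13 cells and Des in 9. The highest sum over a list in any cell was 121 CPM, for the mesenchymal list. Siglec1, known as a macrophage receptor and outside that list, was detected in all 93 cells at 5.2 to 150 TPM. In bulk DLK+ libraries Siglec1 had 0.83 and 0.524 TPM at E13.5 and 0.819 and 0.707 TPM at E12.5, below every single cell. How its single-cell reads were assigned was not tested, so its values are uncertain.

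Most genes of the duct lineage were found in a minority of the cells. Epcam, an adhesion protein whose product was used for sorting, was detected in 20 of 33 EpCAM+ cells (60.6%, exact 95% interval 42.1 to 77.1) and in 3 of 60 DLK+ cells (5.0%, 1.04 to 13.9). It was detected in 12 of the 13 cholangiocytes of the same days. All 95% intervals are exact Clopper-Pearson intervals and cover counting error only, not the spread between sets. Sox9, the earliest duct transcription factor, was detected in 10 of 93 cells (10.8%, 5.28 to 18.9), of which 8 were among the 33 EpCAM+ cells (24.2%) and 2 among the 60 DLK+ cells (3.33%). All 13 cholangiocytes had it.

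The tight junction gene Cldn6 was detected in 16 of 33 EpCAM+ cells and 4 of 60 DLK+ cells, and Cldn7 in 16 and 3. Genes of later ducts were near the limit of detection: Krt19 was detected in 3 cells, all EpCAM+, Krt7 in 2 and Spon1 in 1, against 10 of 13 cholangiocytes for Spon1. Spp1, which encodes osteopontin, was detected in 0 of 93 cells, which allows a share of up to 3.23% (3 counts over the cells, a one-sided limit and not an exact interval), and in 7 of 13 cholangiocytes. With a single read as the rule, 21 of the 93 cells had Spp1, and none held more than 6 reads.

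**Figure D2:**
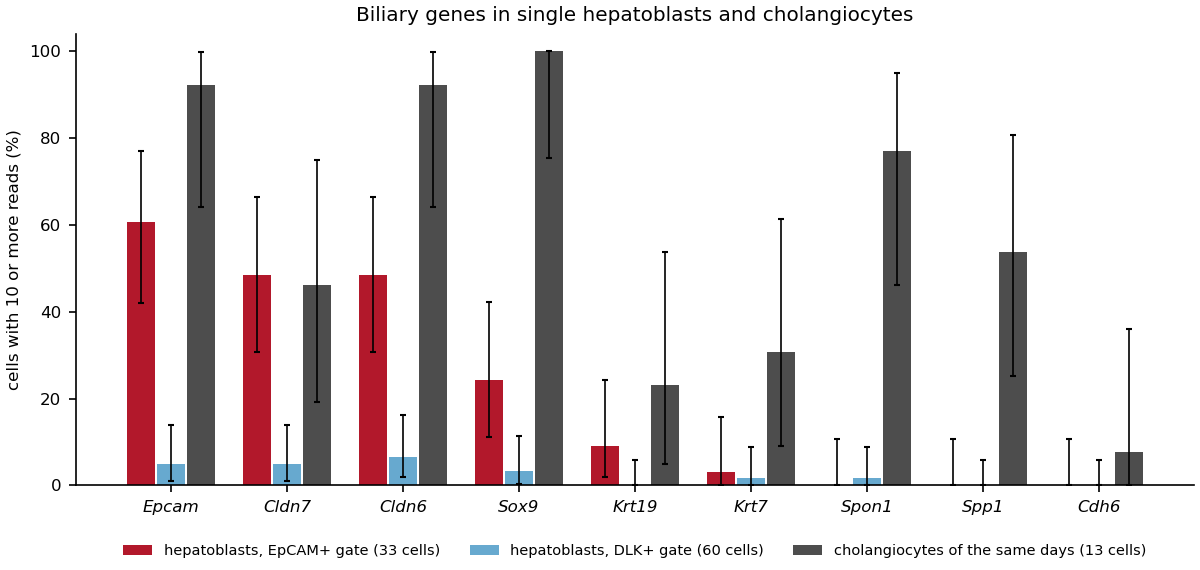
Share of cells in percent with 10 or more reads of each of 9 duct lineage genes, in EpCAM+ hepatoblasts (33 cells), DLK+ hepatoblasts (60 cells) and cholangiocytes of the same days (13 cells); bars start at 0 and error bars are exact 95% binomial intervals. Epcam, Cldn6 and Cldn7 had higher shares in EpCAM+ than in DLK+ hepatoblasts, and Spp1 was detected in cholangiocytes alone at this threshold.

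A list of 7 duct markers (Epcam, Sox9, Krt19, Krt7, Spp1, Spon1 and Cdh6) gave 30 of 93 hepatoblasts with at least 1 marker (32.3%, 22.9 to 42.7). The share was 24 of 33 in the EpCAM+ gate (72.7%) and 6 of 60 in the DLK+ gate (10.0%). Only 8 of the 93 cells had 2 or more of the markers, whereas all 13 cholangiocytes did. Since Epcam follows from the sort, the count was repeated without it: 14 of 93 cells then had at least 1 marker (15.1%), 4 of 55 at E13.5 and 10 of 38 at E12.5. By gate it was 10 of 33 EpCAM+ cells and 4 of 60 DLK+ cells. At E13.5 it was 3 of 16 EpCAM+ and 1 of 39 DLK+ cells, and at E12.5 7 of 17 and 3 of 21. For comparison, 20 of 68 E11.5 hepatoblasts and 7 of 53 E14.5 hepatoblasts had at least 1 marker without Epcam, as did 7 of 35 E17.5 DLK+ hepatocytes. The mix of gates differed between these days, so their shares do not show a trend with stage.

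Since all 93 cells had Alb, Afp, Dlk1 and Hnf4a, the marker-bearing cells had them too, and their levels are of more interest. The 10 cells with Sox9 had 11900 to 47400 TPM of Alb, around a median of 18600 TPM, close to the 19000 TPM of all 93 cells. Their Hnf4a had a median of 36.6 TPM, with a range of 14.3 to 96.9 TPM, inside the range of the whole group. The hepatocyte factor Cebpa was detected in 6 of the 10 Sox9 cells and in 16 of the 23 Epcam cells. Duct markers overlapped only in part with each other: 4 cells had Epcam with Sox9, 13 had Epcam with Cldn6, and 9 had Cldn6 with Cldn7.

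The 3 cells of E12.5 EpCAM+ set 2 all carried Sox9, with 78, 89 and 80 reads. They had 1, 47 and 48 reads of Epcam and 14, 0 and 19 reads of Krt19. The same cells had 45400, 47400 and 36500 TPM of Alb and 85200, 101000 and 77100 TPM of Afp. Their Hnf4a was 29.6, 14.3 and 26 TPM, all below the group median, and their Alb was above it. Other cells with Sox9 differed. A cell of E13.5 EpCAM+ set 3 with 90 reads had 17600 TPM of Alb, and a cell of E12.5 DLK+ set 2 with 48 reads had 12700 TPM. The reads given here are before thinning. After thinning, the highest Sox9 count was 80 reads among E12.5 EpCAM+ cells and 79 among E13.5 EpCAM+ cells. Being 1 set, the 3 cells of E12.5 EpCAM+ set 2 give no measure of the spread between sets of that kind.

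To describe how cells of a set differed, the SD of log2(CPM + 1) was taken within sets (84 degrees of freedom). It was set against a trend through 35 spike-ins, which were added in the same volume to each cell. Gene reads per spike-in read differed between cells (log2 5.08 to 6.99). The spread of the spike-ins includes that difference, so the trend is not a purely technical baseline. Of 3167 genes at a mean of 50 CPM or more, 1668 (52.7%) lay above the trend. The most even genes of the growth programme were Dlk1, with an SD of 0.228 (trend 0.316), H19 with 0.253 (trend 0.343) and Gpc3 with 0.287 (trend 0.302). Foxa3, at 0.466, was also below its trend of 0.649, and Hnf4a was close to it at 0.878 (trend 0.768). Alb, Ttr and Afp had SDs of 0.604, 0.598 and 0.374 against trends of 0.17, 0.216 and 0.17. The trend was held flat beyond the highest spike-in, so for Alb and Afp it is an extrapolation. At high levels it also ran below the spike-ins: the highest, at a mean of 6037 CPM, had an SD of 0.286. The excess of Alb, Ttr and Afp over the trend is therefore overstated.

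**Figure D3:**
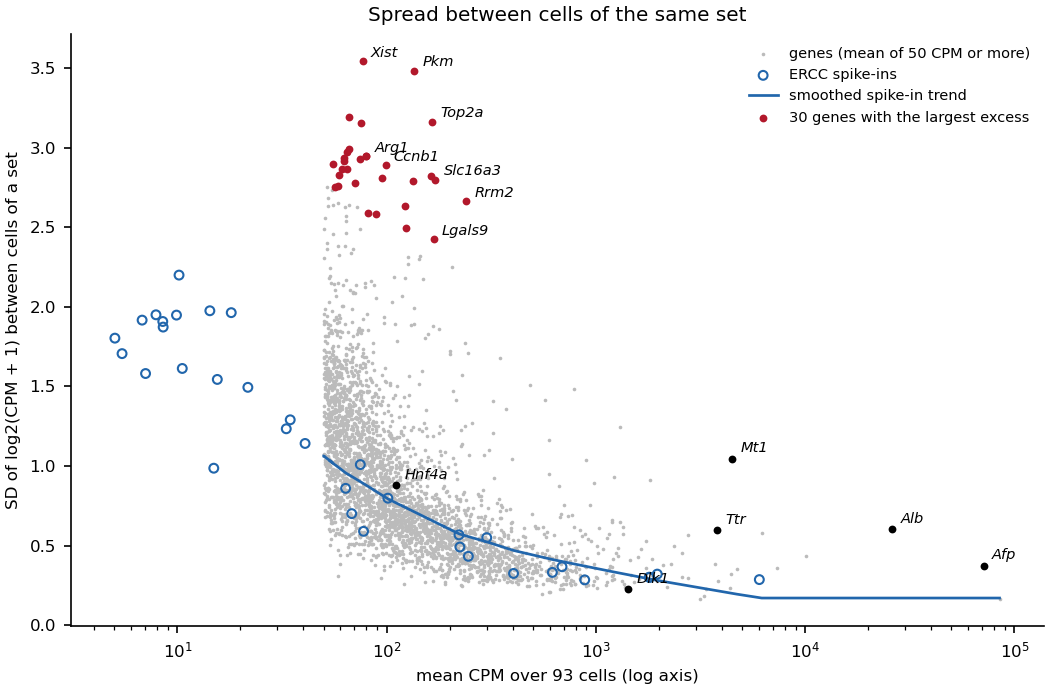
Within-set SD of log2(CPM + 1) against mean level (log axis) for genes at a mean of 50 CPM or more in the 93 cells, with the ERCC spike-ins and their smoothed trend. Pkm (SD 3.49), Top2a (3.16) and Arg1 (2.95) are far above the trend, and Dlk1 (0.228) lies below it.

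The 30 genes farthest above the trend were led by Pkm, which encodes the pyruvate kinase form used by growing cells. Pkm was detected in 50 of 93 cells, at 0 CPM in the lowest, 20.2 CPM in the median and 1240 CPM in the highest cell, with an SD of 3.49 against a trend of 0.713. The ranks had no natural break: the excess over the trend was 1.72 for both the thirtieth and the next gene. With a mean of 20 CPM as the minimum, 28 of the 30 were shared. These genes are given as a ranking and were not tested.

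Of the 30 genes, 8 are on the mitosis or replication lists. Top2a, which untangles chromosomes, was detected in 55 cells at 0 to 844 CPM, Ccna2 in 76, Ccnb1 in 63, Ube2c in 65 and the kinases Plk1 and Aurkb in 48 and 41. Slc16a3, a lactate exporter, ran from 0 to 874 CPM and was detected in 74 cells, Arg1 ran from 0 to 578 CPM, and Car3, a carbonic anhydrase, was detected in 45 cells. The acute phase gene Crp was detected in 54 cells and Lgals9, a sugar-binding protein, in 80. Xist, which is made only from an inactive X chromosome, was among the 30 as well. Of the 93 cells 48 had Xist alone, 44 had Y-linked genes alone, none had both and 1 had neither, and every set held cells of both kinds.

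Many division genes moved together from cell to cell. Among 16 genes of the 30 with roles in division, picked after the ranking was seen, the 120 pairs had correlations between 0.4 and 0.848 after the mean of each set was removed, with a median of 0.672 (93 cells). Ccnd2, a cyclin of G1 phase, was also among the 30 and did not follow them, with values from -0.241 with Ccna2 to 0.0914 with Ccnf. Top2a and Aurkb correlated at 0.82 in all cells, at 0.843 in the 55 E13.5 cells and at 0.798 in the 38 E12.5 cells. Top2a also followed gene reads per spike-in read, at 0.59, and genes per cell, at 0.444, and the part of these in the correlations was not tested. Cells of 1 set share their preparation, and correlations over cells are given as descriptions only.

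Alb moved with other plasma protein genes. It correlated with Ttr at 0.874, with the serine protease inhibitor Serpina1b at 0.806, with Apoh at 0.806 and with Afp at 0.784 (93 cells, set means removed). Scaled to spike-in reads instead of gene reads, the Alb and Ttr value was 0.899 and the Alb and Afp value 0.833. The lowest values were with the chaperone gene Hsp90aa1 (-0.784), the nuclear transport gene Ran (-0.746) and the translation factor gene Eif5a (-0.722). Per spike-in read these were closer to 0, at -0.384, -0.27 and -0.218. Alb followed genes per cell at -0.445 and Hsp90aa1 at 0.555, and the part of that measure was not tested. Top2a and Alb had a value of -0.0867, and 0.202 per spike-in read, both closer to 0 than the values within either group.

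Pkm joined the side opposite to Alb. Its value with Alb was -0.6 in all cells, -0.625 at E13.5, -0.572 at E12.5 and -0.451 per spike-in read. With the glycolysis genes Eno1, Tpi1 and Aldoa it was 0.54, 0.524 and 0.515, with Slc16a3 0.508, and with Top2a 0.214. Arg1 stood on the Alb side, at 0.673 with Ttr and 0.637 with the urea cycle gene Ass1, and at -0.495 with Pkm. Pkm followed genes per cell at 0.456 and Arg1 at -0.29, and the part of that measure in these values was not tested. Pkm, Arg1, Top2a and Alb were chosen for this account after their values were seen.

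**Figure D4:**
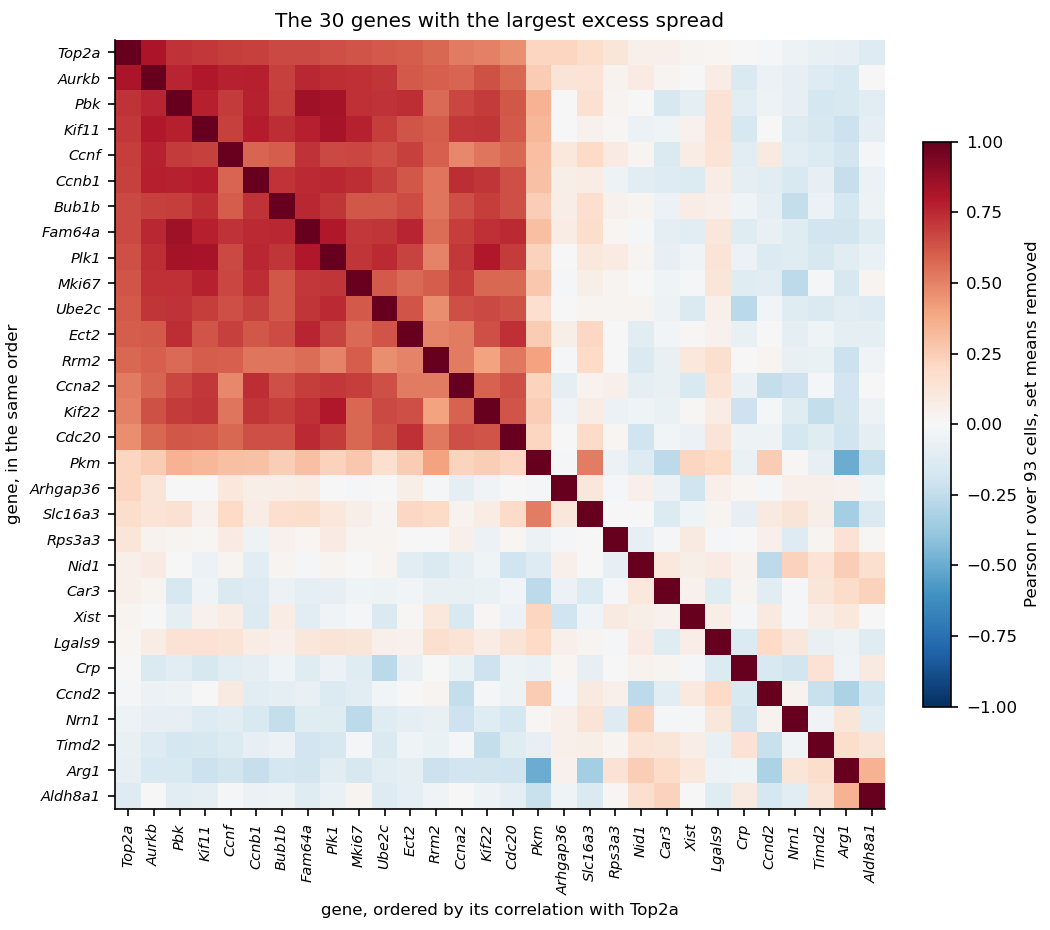
Pearson correlation over the 93 cells, set means removed, between the 30 genes with the largest excess SD, ordered by their correlation with Top2a; both axes list the same genes and colour runs from negative to positive correlation. The 16 picked division genes form a block, with pairwise values of 0.4 to 0.848, the cyclin gene Ccnd2 lies outside it (-0.241 to 0.0914), and Pkm and Arg1 stand apart from each other (-0.495).

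Set medians showed where Arg1 and Pkm were high. Arg1 had medians of 143 and 28.0 CPM in the E13.5 EpCAM+ sets and 0.888, 12.9 and 0.568 CPM in the E13.5 DLK+ sets. At E12.5 it had 27.4 and 331 CPM in the EpCAM+ sets and 6.88 and 34.4 CPM in the DLK+ sets. Both sets with the highest Alb, EpCAM+ set 2 of each day, had the highest Arg1. Pkm had medians of 1.17 and 54.8 CPM in the E13.5 EpCAM+ sets, 21.7, 18.4 and 0 CPM in the E13.5 DLK+ sets, 207 and 1.23 CPM in the E12.5 EpCAM+ sets and 30.1 and 60 CPM in the E12.5 DLK+ sets. Both of those high-Alb sets had Pkm medians near 1 CPM.

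Most cells carried DNA replication genes, and fewer carried mitosis genes. At least 11 of 14 replication genes were detected in 84 of 93 cells, 46 of 55 at E13.5 (83.6%) and 38 of 38 at E12.5. At least 12 of 16 mitosis genes were detected in 41 of 93 cells (44.1%, 33.8 to 54.8). The share was 17 of 55 at E13.5 (30.9%, 19.1 to 44.8) and 24 of 38 at E12.5 (63.2%, 46 to 78.2). Of the 41 cells 39 also met the replication count, and 15 cells met it with 4 or fewer mitosis genes.

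By set, the summed level of the 16 mitosis genes in the median cell was 271 and 470 CPM in the E13.5 EpCAM+ sets and 544, 702 and 368 CPM in the E13.5 DLK+ sets. At E12.5 it was 1430 and 350 CPM in the EpCAM+ sets and 1860 and 571 CPM in the DLK+ sets. The days overlapped: set 1 of each gate was high at E12.5, and the other E12.5 sets lay within the range of E13.5. In bulk DLK+ libraries Top2a had 102 and 93.6 TPM at E13.5 and 183 and 121 TPM at E12.5, while Mki67, a proliferation marker, had 80.1 and 48.5 TPM at E13.5 and 83.2 and 48.7 TPM at E12.5. With 2 bulk libraries a day, the days did not overlap for Top2a and did for Mki67.

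The first comparison of sets asked what separated E13.5 from E12.5 hepatoblasts, averaged over the gates (5 against 4 sets). Reads of a set were summed and tested with edgeR's quasi-likelihood test over 16838 genes with Benjamini-Hochberg adjustment. No gene passed an adjusted p of 0.05 (0%), whereas 1074 genes had an unadjusted p under 0.05 (6.38%) and DESeq2 called 70. Without E12.5 EpCAM+ set 1 the same test called 98 genes, without E12.5 DLK+ set 1 it called 16 and without E13.5 DLK+ set 2 it called 1. Within the DLK+ gate alone and within the EpCAM+ gate alone, no gene passed.

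The 5 genes with the smallest p were 4 with lower and 1 with higher values at E13.5. They were picked by p from these same sets, so a lack of overlap between the days is no further evidence for them. Hist1h4d, a replication-dependent histone H4 gene, had 3.381 and 4.462 CPM in E13.5 EpCAM+ sets and 5.905, 9.881 and 1.378 CPM in E13.5 DLK+ sets, against 56.44 and 25.32 CPM in E12.5 EpCAM+ sets and 51.05 and 22.87 CPM in E12.5 DLK+ sets. Its log2 fold change was -3.03 ± 0.543 (SE) with an edgeR adjusted p of 0.0677. The days did not overlap, yet bulk DLK+ libraries had 11.6 and 7.61 TPM at E13.5 and 7.99 and 7.01 TPM at E12.5.

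Lgals9 had 140.7 and 157.5 CPM in E13.5 EpCAM+ sets and 307.6, 234.0 and 225.5 CPM in E13.5 DLK+ sets. It had 41.15 and 32.27 CPM in E12.5 EpCAM+ sets and 122.7 and 77.02 CPM in E12.5 DLK+ sets. Every E13.5 set was above every E12.5 set, with a log2 fold change of 1.68 and an edgeR adjusted p of 0.101. Bulk DLK+ libraries were ordered alike, at 113 and 185 TPM at E13.5 and 49.8 and 41.4 TPM at E12.5. The RNA helicase gene Dhx9 had 28.79 to 55.60 CPM over the 5 E13.5 sets and 83.94 to 137.2 CPM over the 4 E12.5 sets. Its log2 fold change was -1.47 with the same adjusted p, and its bulk values were 66.2 and 75.1 TPM at E13.5 and 174 and 95.3 TPM at E12.5. The linker histone gene Hist1h1e (-2.71) and the cohesin partner gene Pds5b (-1.40) also did not overlap between days and had that adjusted p. None of the 5 passed the threshold in edgeR, and all 5 passed it in DESeq2, with adjusted p between 3.19e-06 and 0.000725.

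By list, none of 14 replication genes was higher at E13.5 on the point estimate (median log2 fold change -0.677) and 1 of 16 mitosis genes was (median -0.792), with none called. For 15 plasma carriers the median was 0.0928 and for 19 complement and coagulation genes 0.125, with 13 and 16 estimates above 0 and none called. The median over all tested genes was 0. One summary of the cells did separate the days: genes with a read, at equal reads, had set medians of 8252 and 8299 in E13.5 EpCAM+ and 8614, 8600 and 8592 in E13.5 DLK+ sets. They were 9196 and 9012 in E12.5 EpCAM+ and 9458 and 9386 in E12.5 DLK+ sets. The mean was 8471 ± 180 at E13.5 and 9263 ± 201 at E12.5 (SD, n = 5 and 4 sets), a difference of -792 genes. An exact two-sided permutation test gave p = 0.0159, the smallest p this design allows, and the comparison was added after the values had been seen. Gene reads per spike-in read, on the log2 scale, were 5.918 ± 0.315 at E13.5 and 5.856 ± 0.354 at E12.5 (exact permutation p = 0.778).

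The second comparison asked what separated EpCAM+ from DLK+ hepatoblasts, averaged over the days (4 against 5 sets). Of 16838 genes 1 was called by edgeR (0.00594%), 769 had an unadjusted p under 0.05 (4.57%) and DESeq2 called 34. The gene was Cdh1, on chromosome 8 at 106603351 to 106670246, which encodes the adhesion protein E-cadherin. It had 148.3 and 204.3 CPM in E13.5 EpCAM+ sets and 155.3 and 241.8 CPM in E12.5 EpCAM+ sets. The DLK+ sets had 91.02, 75.41 and 137.6 CPM at E13.5 and 99.37 and 67.32 CPM at E12.5. The gates did not overlap, and Cdh1 was higher in EpCAM+ cells by a log2 fold change of 1.02 ± 0.169 (SE, edgeR adjusted p = 0.0179). The call was lost in 5 of 9 fits that left out a set, with an edgeR adjusted p of at most 0.483. The sets left out were E12.5 DLK+ set 2, E12.5 EpCAM+ set 2, E13.5 DLK+ set 1, E13.5 DLK+ set 2 and E13.5 EpCAM+ set 3. The Cdh1 call was also lost when only the sums of the compared groups were fitted, and with the set number within its day as a replicate block. No gene was called within E13.5 or within E12.5 alone, while 2 genes were called without E13.5 DLK+ set 3 and 89 without E12.5 EpCAM+ set 1.

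The genes that followed did not pass. Epcam had 17.21 and 10.22 CPM in E13.5 EpCAM+ and 33.45 and 39.21 CPM in E12.5 EpCAM+ sets, against 0 to 3.430 CPM in DLK+ sets. It was sorted on, and its edgeR adjusted p was 0.105. Arg1 had 212.6 and 108.1 CPM in E13.5 EpCAM+ and 66.08 and 383.5 CPM in E12.5 EpCAM+ sets, against 32.02 to 62.69 CPM in DLK+ sets, a log2 fold change of 2.18 ± 0.44 with an adjusted p of 0.105. Spint2, a protease inhibitor of epithelia, had 141.3 to 205.1 CPM in EpCAM+ sets and 59.82 to 101.5 CPM in DLK+ sets, a log2 fold change of 1.23 ± 0.239 with the same adjusted p. For all of these genes the gates did not overlap. They were named, like Cdh1, for a small p in the same sets, so that lack of overlap is no further evidence.

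Neither Dlk1 nor Alb was called by gate: Dlk1 had a log2 fold change of 0.0896 and Alb of 0.611 (edgeR adjusted p = 1 for Alb). Estimates for plasma carriers were above 0 for 14 of 15 genes (median 0.381), for complement and coagulation for 18 of 19 (median 0.318) and for cholangiocyte genes for 9 of 13 (median 0.944), with none called. Over all genes the median was -0.0202. For replication 1 of 14 estimates was above 0 (median -0.232) and for mitosis 12 of 16 (median 0.389). Mean genes per cell were 8690 ± 485 in EpCAM+ and 8930 ± 450 in DLK+ sets (SD, n = 4 and 5, exact permutation p = 0.476). For the change of the gate difference between the days, edgeR called none (0%), 545 genes had an unadjusted p under 0.05 (3.24%), and DESeq2 called 24. Without E12.5 EpCAM+ set 1 the edgeR count was 55.

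The E13.5 and E12.5 hepatoblasts were then set against the earlier and the later day. Both comparisons use the same 9 sums, so their results are not independent. Genes named for the largest changes were chosen to have no overlap between the sets compared, so a lack of overlap is no further evidence for them. Against the 5 E11.5 sets, 92 genes were higher (0.546%) and 21 lower (0.125%) of 16838, which is 0.671% called, and 9.91% had an unadjusted p under 0.05. Leaving out single sets moved the count between 22 and 270: it was 22 without E11.5 EpCAM+ set 3, 54 without E11.5 EpCAM+ set 2, 64 without E12.5 EpCAM+ set 2, 70 without E13.5 EpCAM+ set 2 and 270 without E12.5 EpCAM+ set 1. Of 26 genes examined by name in this comparison, 8 kept their call in every fit that left out a set and in every alternative: Mgst1, Apoh, Gsta3, C8b, Cdh1, Fdps, Ftl1 and Emb.

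Mgst1, a membrane glutathione transferase, had 85.3 CPM in the lowest of the 9 sets, 201 CPM in the median and 373 CPM in the highest. In E11.5 it had 42.27, 26.65 and 42.01 CPM in DLK+ sets 1 to 3 and 18.95 and 21.26 CPM in EpCAM+ sets 2 and 3. The stages did not overlap, and the log2 fold change was 2.80 ± 0.248 (SE, edgeR adjusted p = 2.83e-08). Gsta3, a cytosolic glutathione transferase, ran from 23.6 to 141 CPM in the 9 sets, against 15.15, 5.381, 5.396, 14.65 and 2.596 CPM in the same order of E11.5 sets (log2 fold change 2.76 ± 0.396).

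Apoh ran from 346 to 1200 CPM around a median of 597 CPM, against 113.4, 82.55 and 93.79 CPM in E11.5 DLK+ and 128.4 and 155.9 CPM in E11.5 EpCAM+ sets. It rose by a log2 fold change of 2.44 ± 0.311 (edgeR adjusted p = 6.02e-05). The stages did not overlap for Apoh. The complement chain C8b averaged 90.49 CPM against 24.34 CPM in E11.5, and Ftl1, the ferritin light chain, 1258 against 639.9 CPM.

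Fdps, which makes farnesyl diphosphate for sterols, ran from 543 to 815 CPM around 684 CPM, against 337.4, 402.9 and 487.1 CPM in E11.5 DLK+ and 381.4 and 401.3 CPM in E11.5 EpCAM+ sets (log2 fold change 0.767 ± 0.134, edgeR adjusted p = 0.00222). Cdh1 ran from 67.3 to 242 CPM, against 42.07, 40.51 and 44.45 CPM in E11.5 DLK+ and 103.1 and 103.8 CPM in E11.5 EpCAM+ sets. It rose by 0.985 ± 0.148, although the E11.5 EpCAM+ sets overlapped the lower DLK+ sets of the later days.

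Emb, an adhesion protein of the immunoglobulin family, was the fall that held throughout. It had 0 CPM in the lowest, 2.2 CPM in the median and 17.9 CPM in the highest of the 9 sets, against 44.26, 39.31 and 53.57 CPM in E11.5 DLK+ and 46.82 and 36.47 CPM in E11.5 EpCAM+ sets. Its log2 fold change was -4.63 ± 0.731 (edgeR adjusted p = 0.000579). Pkm ran from 24.9 to 282 CPM, against 943.5, 863.0 and 1473 CPM in E11.5 DLK+ and 452.3 and 550.0 CPM in E11.5 EpCAM+ sets, a log2 fold change of -2.73 ± 0.551 (adjusted p = 0.00833). Its call was lost without E11.5 EpCAM+ set 3 or E13.5 EpCAM+ set 2, with an adjusted p of at most 0.0635. Pkm lies on chromosome 9 at 59656368 to 59679375, and the same gene had the largest excess over the spike-in trend among single cells.

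Alb ran from 17400 to 53500 CPM around 23200 CPM, against 10540, 9815 and 7866 CPM in E11.5 DLK+ and 11560 and 12180 CPM in E11.5 EpCAM+ sets. Its log2 fold change was 1.43 ± 0.27 (edgeR adjusted p = 0.00465), and the call was lost without E11.5 EpCAM+ set 2 or set 3 (adjusted p of at most 0.0747). For Afp the log2 fold change was 0.467 with an adjusted p of 0.2. The heparin-binding growth factor Mdk fell by 1.84 ± 0.392 on the log2 scale (adjusted p = 0.0132), a call lost in 4 of the 14 fits that left out a set, and Cldn6 by 2.19, a call lost in 12 of them.

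By list, 3 of 15 plasma carriers were called higher than in E11.5, with all 15 estimates above 0 (median log2 fold change 0.657). The same held for 3 of 19 complement and coagulation genes (all 19 above 0, median 0.5), 3 of 12 sterol genes (all 12 above 0, median 0.384) and 3 of 10 iron and heme genes (9 above 0, median 0.769). Single sets decided several of these calls: of 14 fits that left out a set, the sterol genes Cyp51 and Idi1 lost theirs in 10 and 8, the iron exporter Slc40a1 in 9 and the complement gene C3 in 6. For 15 early biliary genes 1 estimate was above 0, that of Cdh1, and the median was -0.366. For 16 mitosis genes 1 estimate was above 0 (median -0.812), with none called. Over all tested genes the median was -0.0513.

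Against the 6 E14.5 sets, 195 genes were higher (1.16%) and 259 lower (1.54%), which is 2.7% called, and 14.7% had an unadjusted p under 0.05. Gene reads per spike-in read moved with this comparison: the median log2 of gene reads per spike-in read was 5.485 to 6.224 in the 9 sets and 4.916 to 5.499 in E14.5. With that ratio as a covariate, an alternative added after the data were seen, 80 genes were called, and without E14.5 set 3 of both gates 170 were. Genes per cell were 7689 and 7698 in E14.5 set 3 and 8538 to 8762 in the other E14.5 sets. Leaving out 1 set gave 217 without E14.5 EpCAM+ set 3, 281 without E14.5 DLK+ set 3, 284 without E12.5 DLK+ set 2, 287 without E13.5 EpCAM+ set 3, 293 without E14.5 DLK+ set 2 and 624 at most. Of 47 genes examined by name, 14 kept their call in every fit, and those lead the account.

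Of these, 5 were higher in the E13.5 and E12.5 cells. Cd24a, a surface protein of progenitors, had 8.86, 25.4 and 55.1 CPM in the lowest, median and highest of the 9 sets, against 0.263, 4.52 and 7.35 CPM in E14.5. The stages did not overlap, and the log2 fold change was 2.81 ± 0.351 (SE, edgeR adjusted p = 3.9e-05). Tead2, a DNA-binding partner of YAP, had 18.6, 27.1 and 35.1 CPM against 4.47, 8.0 and 12.9 CPM, a log2 fold change of 1.73 ± 0.278. Marcksl1, an actin regulator, averaged 98.4 against 49.38 CPM. Snrpd3, a core protein of the spliceosome, averaged 139 against 81.13 CPM, and Fam162a 165.5 against 92.14 CPM.

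The other 9 were lower. Acat1, a mitochondrial enzyme of ketone and isoleucine metabolism, had 305, 376 and 480 CPM in the lowest, median and highest of the 9 sets, against 513, 788 and 1140 CPM in E14.5. All E14.5 sets were above all 9 sets, with a log2 fold change of -1.10 ± 0.165 (edgeR adjusted p = 0.000386). Dpys, an enzyme of pyrimidine breakdown, had 2.38, 6.19 and 9.51 CPM against 10.0, 30.4 and 78.7 CPM (log2 fold change -2.70 ± 0.459). Gsta3 had 23.6, 75.6 and 141 CPM against 137, 240 and 383 CPM, an overlap at the edge (log2 fold change -2.02 ± 0.315). Slc37a4, the glucose-6-phosphate transporter, had 27.1, 54.1 and 106 CPM against 66.9, 114 and 168 CPM (log2 fold change -1.10 ± 0.18).

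Apob, the structural protein of very low density lipoprotein, averaged 566.6 against 954.4 CPM, a log2 fold change of -0.752 ± 0.16 (edgeR adjusted p = 0.00597). Enpp3, Selenbp2 and Hps3 had log2 fold changes of -2.24, -1.81 and -1.22. Cyp3a11, the main drug-metabolising cytochrome of mature mouse liver, was near 0 in the 9 sets, with 0.41 CPM at most, against 0 to 37.7 CPM in E14.5, so no fold is given. Apoh (-1.36), Ahsg (-1.52) and the bile acid gene Slc27a5 (-2.18) were called in the comparison itself and lost in at least 1 alternative. Siglec1 was called higher, at 101 to 211 CPM against 30.3 to 72.6 CPM, with the bulk values given above, and its call was lost with the spike-in covariate (adjusted p = 0.1).

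**Figure D5:**
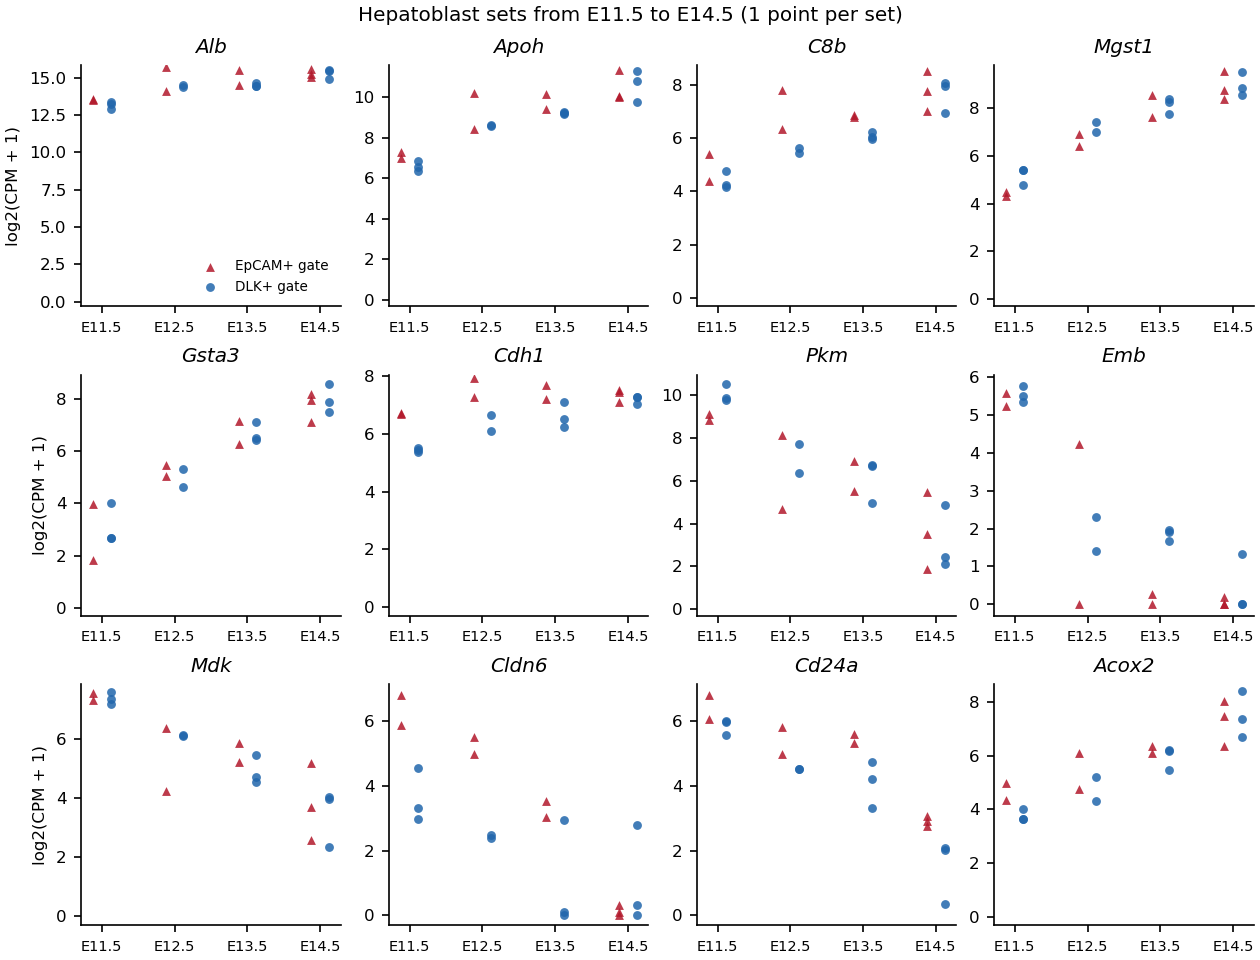
Level as log2(CPM + 1) of 12 genes in every set of hepatoblasts at E11.5, E12.5, E13.5 and E14.5, in order of stage; each point is the summed reads of 1 set. Mgst1, Apoh and Gsta3 lay above E11.5 in all 9 sets of E12.5 and E13.5, Emb lay below it, and Cd24a fell under every one of those sets in E14.5.

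Lists of liver function were lower in the E13.5 and E12.5 cells than in E14.5 throughout on the point estimates. No estimate was above 0 among 15 plasma carriers (3 called lower, median log2 fold change -0.511) or 19 complement and coagulation genes (5 called lower, median -0.542). Of 11 bile acid genes 4 were called lower (median -0.844), of 12 drug metabolism genes 3 (median -1.27), of 10 gluconeogenesis and glycogen genes 3 (median -0.531) and of 12 amino acid genes 2 (median -0.679). Many of these calls depended on the fit. Of the 47 genes named in this comparison, 15 kept their call with the spike-in covariate and 23 without E14.5 set 3. Apoh, Ahsg, F11, Kng1, Proc, Fah, Hpd and Pygl lost theirs under both. Of 13 immediate early and stress genes, which respond quickly to outside stimuli, 2 were called lower (Jun and Zfp36, median -1.46). The Jun call was lost in 11 of 15 fits that left out a set and the Zfp36 call in 2, and both were lost with the spike-in covariate (adjusted p = 0.509 and 0.427). All 14 replication genes had estimates above 0 (median 0.625), with Mcm3, a subunit of the replicative helicase, called at 0.869, while 16 mitosis genes had a median of 0.00842 and none called. The Mcm3 call was lost in 9 of 15 fits that left out a set, with the covariate, with only the compared sums and without E14.5 set 3 (adjusted p of at most 0.46). The red cell list had a median of -2.47 over 6 genes, with none called. The median over all tested genes was 0, and Alb (-0.511, edgeR adjusted p = 0.291) and Dlk1 (0.404, adjusted p = 0.449) were not called.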

How the data were processed

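The values used were read counts per gene, deposited by the authors without normalization, for 40824 genes and 92 ERCC spike-ins in each single cell and for genes in each bulk library. The counts came from TopHat2 2.1.0, Bowtie2 and HTSeq 0.6.0 on GRCm38/mm10, per the submitters' processing notes; the strand setting is not given in the sources used here. The deposited gene lengths were used to compute TPM; deposited normalized tables were not used.

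The members and gene lists were chosen with earlier results of these data known. Each set of at least 2 cells gave 1 summed library, and 42 such sums of embryo cells entered 1 edgeR 4.0.16 quasi-likelihood fit (limma 3.58.1, R 4.3.3) with TMM scaling, filterByExpr at a minimum count of 10 and Benjamini-Hochberg adjustment. CPM of sets is TMM-adjusted. DESeq2 1.42.0, no filter, thinned counts, a block on the set number, fits with only the compared sums, single gates or days and leaving out each set were alternatives. Gene reads per spike-in read as a covariate and the test of genes per cell were added after the data were seen. The fits were tested on simulated data with 200 changed genes.

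Named genes were called at an adjusted p of 0.05, had a mean of 10 CPM on the higher side and did not overlap between groups, with the 10 largest rises and falls taken, or the 5 smallest p where fewer passed. Up to 4 called members of each of 23 lists (274 genes), the 30 highest and the 30 most variable genes were added. Predicted, mitochondrial, haemoglobin and spike-in genes were left out, and a few genes that the rule takes are not reported here. The 151 genes that share a symbol are matched by identifier. Within-set SDs used a pseudocount of 1 and a lowess trend with a fraction of 0.6. Reads are not unique molecules, so intervals cover counting error only. Single-cell summaries and figures used Python 3.11.15 with scipy 1.17.1, statsmodels 0.14.6 and matplotlib 3.10.9. Sequences come from RefSeq (GRCm38.p6).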

Additional observations from a re-analysis of the deposited data

Results flagged for a closer look

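In 25 of 213 groups of sets examined (11.7%), 1 set stood far from the others by Dixon's test. A chance rate of about 1 in 20 groups assumes independent groups and normally distributed values. The groups here reused the same sets and mixed gates or days, and some genes were barely detected. The 11.7% therefore cannot be compared with that rate, and the flagged sets are given as descriptions only. All values are CPM of a set.

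E12.5 EpCAM+ set 2, which holds 3 cells, stood apart most often. Its Sox9 was 101, above 1.51 to 11 in the other E12.5 sets and above 0 to 16 in the other EpCAM+ sets and in all other sets of E13.5 and E12.5. Its Afp was 112000 against 58600 to 65700 in the other E12.5 sets, and its Alb 53500 against 17400 to 23400. Its C8b was 220 against 42.8 to 116 in the other 8 sets.

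E13.5 EpCAM+ set 2 had the highest Alb of the E13.5 sets (46400 against 22400 to 26000) and the highest Tm4sf4, a tetraspanin-like membrane protein, of all 9 sets (282 against 135 to 205). It had the lowest Spint2 of the EpCAM+ sets (141 against 199 to 205). Sox9 was 16 in E13.5 EpCAM+ set 3, against at most 0.995 in the other E13.5 sets, and 11 in E12.5 DLK+ set 2, against at most 1.51 in the other DLK+ sets. E12.5 EpCAM+ set 1 had the highest Emb (17.9 against at most 3.95) and Marcksl1 (119 against 92.8 to 101) of the 9 sets.

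Among the E14.5 sets, Cldn6 was 5.96 in DLK+ set 1 (others at most 0.263), Cyp3a11 was 37.7 in DLK+ set 3 (others at most 7.4), Mdk was 35.3 in EpCAM+ set 2 (lowest 4.09) and Ptprd, a receptor phosphatase, was 66 in EpCAM+ set 1 (others 30.9 to 41.0).

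The rest were near 0: Spp1 was 2.32 in E13.5 DLK+ set 1, 0.432 in E13.5 EpCAM+ set 3, 1.1 in E12.5 DLK+ set 2 and 1.14 in E11.5 DLK+ set 1, Baat was 3.68 in E12.5 EpCAM+ set 2, Cyp3a11 was 0.41 in E13.5 DLK+ set 2 and Nrarp, a Notch feedback gene, was 0.988 in E12.5 DLK+ set 1.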

How the results depend on the processing

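No named gene with a call reversed its direction under the alternatives run. A change of sign in a gene without a call was not counted as a reversal. DESeq2 called more genes in every comparison: 70 for E13.5 against E12.5, 34 for EpCAM+ against DLK+, 24 for the change of the gate difference, 312 against E11.5 (110 of the 113 edgeR genes with the same sign) and 918 against E14.5 (448 of the 454). Without a filter on low counts, 11 and 5 genes were called for the day and the gate. With only the sums of the groups compared, 1 gene was called for the day, 0 for the gate, 172 against E11.5 (85 shared) and 299 against E14.5 (250 shared). The gate had 0 calls within E12.5 and 0 within E13.5. With the spike-in ratio as a covariate, 1 gene was called for the day (Hist1h4d, lower at E13.5) and 80 against E14.5 (76 shared); without set 3 of E14.5 there were 170 (146 shared). The cause of these moves was not tested.

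Leaving out 1 set gave 0 to 98 genes for the day, 0 to 89 for the gate, 0 to 55 for the change of the gate difference, 22 to 270 against E11.5 and 217 to 624 against E14.5. Gene reads per spike-in read differed by -0.0612 to 0.171 (log2) between the days and by -0.143 to 0.0531 between the gates, with exact permutation p of at least 0.464. The direction of both differences thus depended on the set left out. The difference in genes per cell between the days kept its direction and call in all 9. That outcome follows from the lack of overlap between the days, so it is no further evidence.

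Set numbers are shared across gates, but same-numbered sets deviated together by a correlation of only 0.0102 to 0.0537, under 0.1, so the number was not taken as a pairing. In gene reads per spike-in read, however, same-numbered sets lay close (log2): set 2 of E13.5 had 6.123 in EpCAM+ and 6.224 in DLK+ and set 3 had 5.599 and 5.556, while set 1 of E12.5 had 6.135 and 6.181 and set 2 had 5.621 and 5.485. With the set number as a replicate block, the gate count was 0, the day count 0, the E11.5 count 112 and the E14.5 count 461.

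Duct genes depended on the read threshold. With 1 read, Epcam was found in 30 of 93 cells, Sox9 in 20, Krt7 in 30, Krt19 in 4, Spon1 in 6 and Spp1 in 21. With 50 reads Epcam was found in 2 cells and Sox9 in 4. Genes of a few reads per cell were not resolved at this depth, and in sums of few cells single cells weigh heavily.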
